A study of Mus musculus with 56 samples.

Results

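The genes described here are 10 transcripts of the fat cell, Adipoq, Lep, Retn, Plin1, Cidec, Lipe, Lpl, Fabp4, Pparg and Pck1, measured in the front paws of mice with collagen-induced arthritis (CIA). They were taken by gene symbol from a matrix of 53431 features, and all 10 were found. CIA is an inflammatory joint disease that follows immunisation with a joint cartilage collagen. Male DBA/1 mice were immunised with chicken type II collagen on day 1 and again on day 21. From day 21 they were given antibody 2 times a week for 5 weeks, and RNA from homogenised whole front paws was sequenced on day 91. Of the 56 libraries, 13 came from immunised mice given an isotype control antibody (IgG1, 30 mg/kg), 13 from immunised mice given anti-TNF (clone XT3.11, 30 mg/kg), 13 from immunised mice given anti-IL-6 (clone MP5-20F3, 10 mg/kg) and 13 from immunised mice given both antibodies at those doses, called the combination here. A further 4 libraries came from untreated mice without CIA. The labels name no sham immunisation, so immunisation and antibody injection both separate the mice without CIA from every other group. Replicate numbers below only name a mouse within its group.

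Adipocytes store triglyceride in a lipid droplet, release fatty acids from it between meals and secrete hormones. Adiponectin (Adipoq) and leptin (Lep) are the classical hormones, and resistin (Retn) is a further secreted product of mouse fat. Perilipin 1 (Plin1) coats the droplet and guards it from lipases, Cidec helps droplets to fuse, and hormone-sensitive lipase (Lipe) cuts diacylglycerol when Plin1 is phosphorylated. Lipoprotein lipase (Lpl) frees fatty acids from circulating lipoproteins, the binding protein Fabp4 carries them inside the cell, and the nuclear receptor PPAR gamma (Pparg) switches on most of these genes during fat cell formation. Pck1 encodes the cytosolic phosphoenolpyruvate carboxykinase, which is best known for glucose production in liver and kidney. In fat it makes the glycerol backbone onto which freed fatty acids are put back (glyceroneogenesis), and cAMP raises its transcription in liver. A paw holds fat beneath the skin, around tendons, within joints and in bone marrow, beside much larger amounts of skin, muscle and bone. In such bulk samples, fewer fat cells and less RNA per fat cell cannot be told apart.

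The sequences just upstream of 3 of the genes are shown because their promoters carry different letters although the transcripts varied together across mice. Each run is the 250 bases before the RefSeq transcription start on GRCm38.p6, read 5′ to 3′ on the strand of the gene. Capitals mark matches to a motif letter string and nothing else. Pck1 lies at chr2:173152823-173153072 on the + strand, Adipoq at chr16:23146286-23146535 on the + strand and Lep at chr6:29059971-29060220 on the + strand.
Pck1: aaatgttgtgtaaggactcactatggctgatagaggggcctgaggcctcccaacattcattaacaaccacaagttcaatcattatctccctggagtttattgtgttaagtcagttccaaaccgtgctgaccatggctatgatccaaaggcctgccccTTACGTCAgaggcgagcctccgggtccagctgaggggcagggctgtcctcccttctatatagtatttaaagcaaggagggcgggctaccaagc
Adipoq: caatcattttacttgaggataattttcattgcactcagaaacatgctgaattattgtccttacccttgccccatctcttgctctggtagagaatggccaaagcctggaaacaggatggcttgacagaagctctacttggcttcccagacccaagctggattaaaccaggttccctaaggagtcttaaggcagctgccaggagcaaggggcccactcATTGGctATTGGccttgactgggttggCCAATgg
Lep: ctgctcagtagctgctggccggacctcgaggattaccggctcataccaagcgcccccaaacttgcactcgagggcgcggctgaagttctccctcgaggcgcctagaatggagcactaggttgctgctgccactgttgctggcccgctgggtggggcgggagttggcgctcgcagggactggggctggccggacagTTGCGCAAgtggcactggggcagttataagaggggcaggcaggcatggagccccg
Upstream windows were found for 8 of the 10 genes, with 12 transcription starts between them, and Fabp4 and Lpl had none in the table used. A string like the cAMP response element, TNACGTCA, stood in the Pck1 window (TTACGTCA, its first base at -93) and in no window of the other 7 genes. It stood in 2.52% of 32851 mouse promoter windows of the same length. A string like a C/EBP site, TTGCNNAA, stood in 4 of the 12 windows, from Lep (TTGCGCAA at -55), Cidec, Plin1 and Pparg, against 9.56% of all windows. CCAAT stood 3 times in the Adipoq window, on either strand, and in 33.8% of all windows, and the direct repeat to which PPAR gamma with its partner RXR is known to bind stood in 0 of the 12 and in 0.338% of all. Both strands were read for every motif, TTGCGCAA reads the same on both, and no match says only that the letters are not in that window.

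Levels are given as FPKM, fragments scaled to transcript length and to the mapped fragments of the library, which can be compared between genes because length is divided out. Fabp4 had the highest mean over all 56 libraries, 218 FPKM, followed by Lpl at 29.7, Lipe at 18.7, Adipoq at 16.7, Cidec at 11.7, Retn at 9.96, Plin1 at 6.56, Pparg at 5.89, Pck1 at 3.03 and Lep at 0.683 FPKM. All 10 were detected in every library. The spread between mice differed from gene to gene. The coefficient of variation over all libraries was 75.9% for Lep, 62.8% for Pck1, 51.4% for Plin1, 50.2% for Cidec, 49.0% for Adipoq and 48.4% for Retn. It was 25.7% for Fabp4, 25.5% for Lpl, 24.4% for Pparg and 19.4% for Lipe. Adipoq ranged from 3.62 FPKM in anti-IL-6 replicate 3 to 40.2 FPKM in anti-TNF replicate 1. The depth behind these values, estimated from the step size of low values of single-exon genes, was 39.9 to 54.7 M fragments a library (M for mega), with a median of 46.4 M. Lep at its lowest, 0.0781 FPKM, then stood for about 12.1 fragments, so counting error was small for every other gene.

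**Figure D1:**
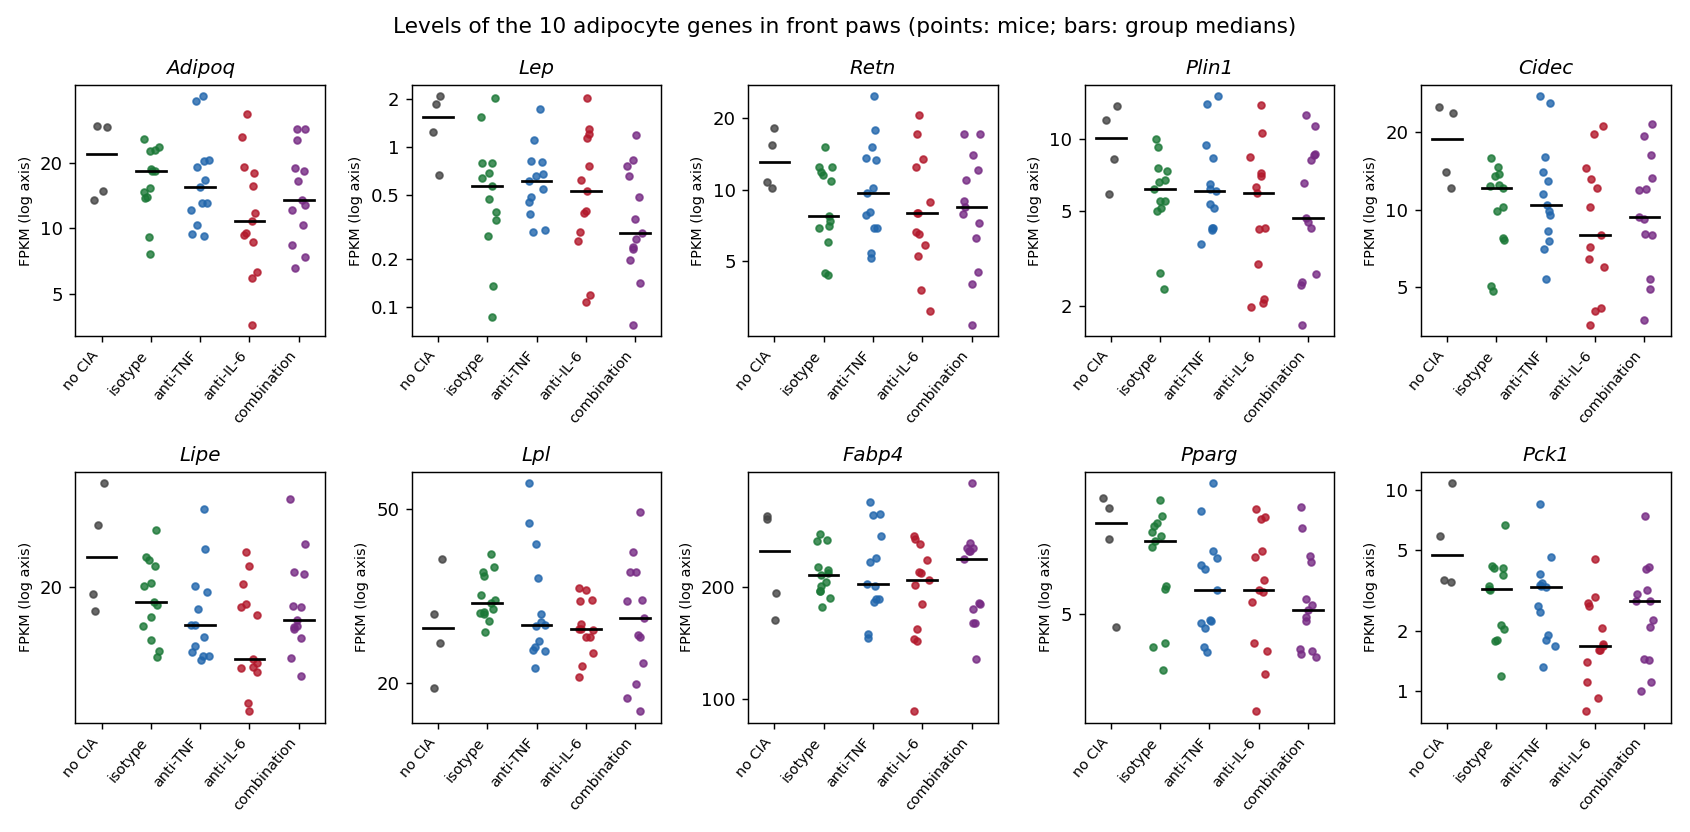
FPKM on a log axis of each of the 10 genes in the 56 mice, by group; each point is a mouse and each bar a group median. The medians of Pck1 ran from 4.72 without CIA to 1.68 with anti-IL-6, and for all genes the groups overlapped.

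Each group was compared with each other group on log2(FPKM + 1) in a single limma fit of all 56 libraries, over the 14700 features with a mean of at least 1 FPKM in any group, and the threshold was an adjusted p (Benjamini-Hochberg over those features) of 0.05. All 10 genes were tested. Lep, however, passed the filter only through the mice without CIA, so for comparisons with those mice the counts and medians below cover the 9 other genes and no p-value for Lep is taken from this fit. In the isotype group 0 of the 9 genes were called against no CIA, where limma called 0.156% of all features. There, 2 of the 9 had an unadjusted p under 0.05 (16.7% of all features did), 8 had a negative difference (44.2% of all), and their median difference was -0.30 where that of all features was 0.03. In the anti-TNF group 0 genes were called (background 0.551%), 2 had an unadjusted p under 0.05 (19.1% of all), 8 were negative (43.2% of all) and the median was -0.32. In the anti-IL-6 group 1 gene was called, Pck1 (background 0.558%), 5 had an unadjusted p under 0.05 (28.1% of all), all 9 were negative (38.0% of all) and the median was -0.65, against 0.07 for all features. In the combination group 0 genes were called (background 0.156%), 3 had an unadjusted p under 0.05 (10.5% of all), 8 were negative (45.9% of all) and the median was -0.48. These 4 comparisons share the same 4 mice without CIA, so their likeness is not separate evidence. The genes also varied together from mouse to mouse, as described below. Their signs, here and between the immunised groups, are therefore not separate observations.

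Between the immunised groups no gene of the 10 was called by limma. Against isotype, the anti-IL-6 group had 0 calls (background 0.952%), and 2 genes, Pck1 and Lipe, had an unadjusted p under 0.05, as 12.8% of all features did. Its differences were negative for 9 genes (39.99% of all features) with a median of -0.18. The anti-TNF group had 0 calls against isotype (background 0%), 0 genes at the unadjusted level (5.47% of all), 6 positive differences (54.3% of all) and a median of 0.01. The combination had 0 calls against isotype (background 0%), 0 genes at the unadjusted level (5.78% of all), 10 negative differences (53.4% of all) and a median of -0.14. These 3 comparisons share the isotype mice. The anti-TNF group set against the anti-IL-6 group gave 0 calls (background 0%) and 1 gene with an unadjusted p under 0.05, which was Pck1 (4.68% of all). All 10 differences there were positive (41.2% of all) with a median of 0.24. Against anti-TNF, the combination gave 0 calls (background 0%), 0 genes at the unadjusted level (1.09% of all), 9 negative differences (61.8% of all) and a median of -0.17. Against anti-IL-6, it gave 0 calls (background 0.102%), 0 genes at the unadjusted level (11.4% of all), 8 positive differences (34.5% of all) and a median of 0.10.

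**Figure D2:**
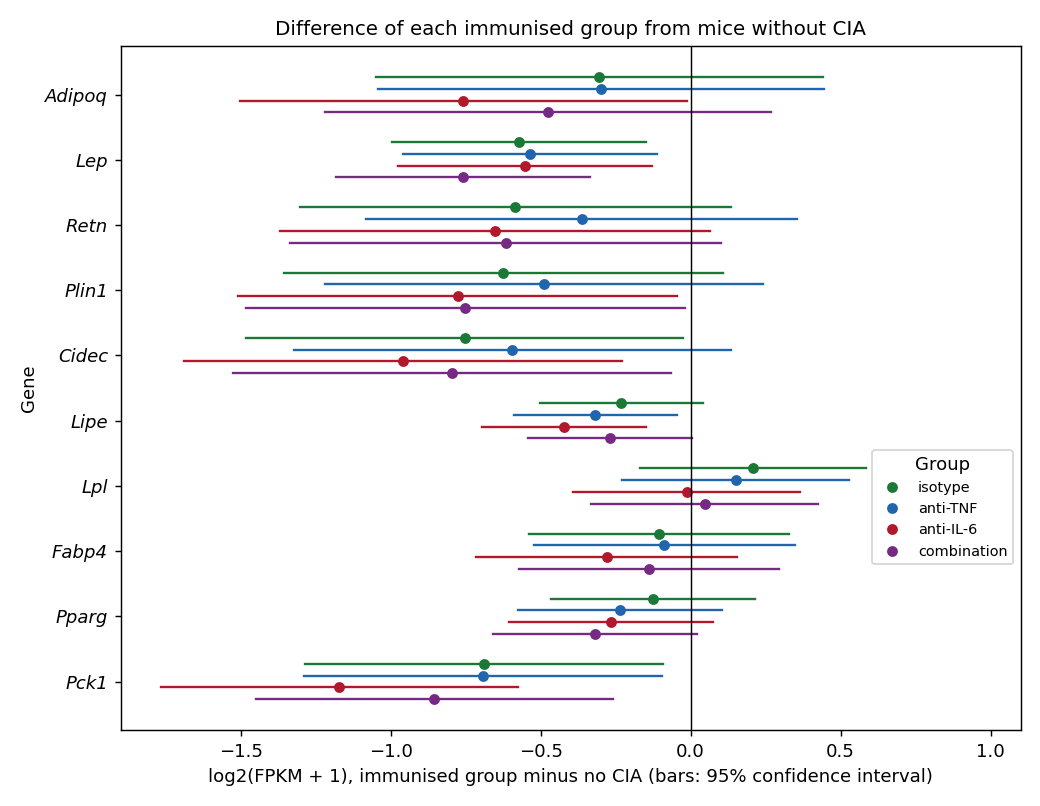
Difference of each immunised group from the mice without CIA for each gene, on the log2(FPKM + 1) scale; points are limma estimates and bars 95% confidence intervals. Pck1 in the anti-IL-6 group lies at -1.17 and Lpl in the isotype group at 0.21, and the 4 groups are compared with the same 4 mice.

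The secreted products were lower on average in immunised mice, within a wide overlap. Adipoq was at 13.5, 29.4, 29.1 and 14.9 FPKM in the 4 mice without CIA. Its lowest, median and highest values were 7.60, 18.2 and 25.6 FPKM in the isotype group and 9.21, 15.5 and 40.2 FPKM in the anti-TNF group. They were 3.62, 10.8 and 33.6 FPKM with anti-IL-6, and 6.61, 13.5 and 28.7 FPKM with the combination. The mice without CIA fell into a high and a low pair, both within the range of the immunised mice, and the 2 highest libraries of all were anti-TNF replicates 1 and 3. The difference from no CIA was -0.30 ± 0.371 (SE) in the isotype group and -0.76 ± 0.371 in the anti-IL-6 group, with limma adjusted p of 0.665 and 0.173. Leptin, which circulates in proportion to fat mass and curbs appetite, was at 0.664, 1.84, 2.07 and 1.24 FPKM without CIA. Its lowest, median and highest values were 0.0866, 0.571 and 2.00 FPKM with isotype and 0.296, 0.614 and 1.73 FPKM with anti-TNF. They were 0.108, 0.531 and 2.03 FPKM with anti-IL-6, and 0.0781, 0.292 and 1.18 FPKM with the combination. Below the lowest mouse without CIA lay 8 of 13 isotype, 8 of 13 anti-TNF, 8 of 13 anti-IL-6 and 10 of 13 combination mice. The difference from no CIA was -0.57 ± 0.211 (SE) with isotype and -0.76 ± 0.211 with the combination. In a fit with no filter on low values, in which its level without CIA had no part in its being tested, the limma adjusted p was 0.330 for isotype, 0.297 for anti-TNF, 0.218 for anti-IL-6 and 0.145 for the combination.

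Retn followed Adipoq more than Lep. It was at 10.1, 15.4, 18.2 and 10.8 FPKM without CIA, and its median was 7.69 with isotype (range 4.32 to 15.2), 9.70 with anti-TNF (5.14 to 24.8), 7.94 with anti-IL-6 (3.06 to 20.7) and 8.44 with the combination (2.68 to 17.3). Its differences from no CIA ran from -0.36 to -0.65, none past the threshold. The resistin gene lies on chromosome 8 (GRCm38, 3655770 to 3660110, + strand).

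The droplet genes Plin1 and Cidec and the lipase Lipe were lower on average in all 4 immunised groups, and none passed the test. Plin1 was at 5.86, 13.7, 11.9 and 8.22 FPKM without CIA. Its medians in the immunised groups were 6.196 with isotype (2.35 to 10.0), 6.06 with anti-TNF (3.61 to 15.1), 5.96 with anti-IL-6 (1.98 to 13.9) and 4.68 with the combination (1.67 to 12.6). Cidec was at 12.1, 25.0, 23.8 and 14.0 FPKM without CIA. Its lowest, median and highest values were 4.82, 12.1 and 16.0 FPKM with isotype and 5.39, 10.4 and 27.6 FPKM with anti-TNF. They were 3.57, 7.99 and 21.2 FPKM with anti-IL-6, and 3.72, 9.38 and 21.6 FPKM with the combination. All 13 isotype mice had less Cidec than the mean of the mice without CIA, and 6 had less than the lowest of them. Its difference from no CIA was -0.75 ± 0.363 with isotype (unadjusted p 0.0433, limma adjusted p 0.292) and -0.96 ± 0.363 with anti-IL-6 (unadjusted p 0.0109, limma adjusted p 0.123). Lipe had the narrowest spread of the 10 genes. It was at 19.5, 29.4, 25.2 and 18.3 FPKM without CIA, and its median was 18.9 with isotype (15.4 to 24.7), 17.3 with anti-TNF (15.3 to 26.7), 15.3 with anti-IL-6 (12.6 to 22.8) and 17.7 with the combination (14.4 to 27.6). With anti-IL-6 all 13 mice lay below the mean of the mice without CIA and 8 below the lowest of them, a difference of -0.42 ± 0.136 (unadjusted p 0.00303, limma adjusted p 0.110). Lipe overlaps the gene model 4732471J01Rik, and the strand setting of the counting is not given in the sources used here, so reads of the 2 may not be separated.

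The genes of fatty acid uptake and binding had smaller differences from no CIA than the droplet genes, without a test of that contrast between genes. Lpl, which muscle also makes, was at 19.5, 28.8, 38.5 and 24.7 FPKM without CIA and at medians of 30.6 with isotype (26.1 to 39.4), 27.1 with anti-TNF (21.7 to 57.3), 26.5 with anti-IL-6 (20.7 to 33.1) and 28.2 with the combination (17.3 to 49.2). Its difference from no CIA was 0.21 ± 0.188 with isotype (95% interval -0.17 to 0.59, limma adjusted p 0.549), the only positive one of the 10 genes there. Fabp4, which capillary endothelium also makes, was at 163, 304, 309 and 192 FPKM without CIA. Its medians were 214 with isotype (176 to 277), 203 with anti-TNF (146 to 337), 209 with anti-IL-6 (92.8 to 273) and 237 with the combination (128 to 378). Its differences from no CIA ran from -0.09 to -0.28 and none was past the threshold. The 95% interval with anti-IL-6 was -0.71 to 0.15. Pparg, the transcription factor, was at 7.97, 8.32, 6.95 and 4.70 FPKM without CIA and at medians between 5.07 with the combination and 6.90 with isotype. Its differences from no CIA ran from -0.12 to -0.32, none past the threshold, and Pparg overlaps the gene model Gm44079.

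Pck1 was the only gene of the 10 to pass the test in a comparison, being lower with anti-IL-6 than without CIA. It was at 3.50, 10.8, 5.87 and 3.57 FPKM in the 4 mice without CIA, a mean of 5.94 ± 3.42 (SD, n = 4). Its lowest, median and highest values were 1.19, 3.21 and 6.67 FPKM with isotype (mean 3.19 ± 1.46, n = 13) and 1.33, 3.27 and 8.48 FPKM with anti-TNF (3.24 ± 1.84, n = 13). They were 0.793, 1.68 and 4.55 FPKM with anti-IL-6 (1.98 ± 1.03, n = 13), and 1.01, 2.79 and 7.42 FPKM with the combination (2.83 ± 1.72, n = 13). With anti-IL-6, 12 of 13 mice lay below every mouse without CIA, and replicate 8 was the exception. The numbers below the lowest mouse without CIA were 8 of 13 with isotype, 10 of 13 with anti-TNF and 10 of 13 with the combination. Pck1 fell in the anti-IL-6 group relative to no CIA by 1.17 on the log2(FPKM + 1) scale (SE 0.297, 95% interval -1.77 to -0.57, limma adjusted p 0.0463). The call depended on single libraries. It was lost in 11 of 17 fits that left out 1 library of either group, among them each of the 4 mice without CIA: limma adjusted p was 0.0615, 0.273, 0.150 and 0.0966 without replicates 1, 2, 3 and 4. Without anti-IL-6 replicates 3, 4, 6, 7, 9, 12 or 13 it was 0.0503 to 0.0772. The difference was between -0.88 and -1.34 in all 17 fits.

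The other Pck1 differences from no CIA were -0.69 ± 0.297 with isotype, -0.69 ± 0.297 with anti-TNF and -0.85 ± 0.297 with the combination, with limma adjusted p of 0.272, 0.208 and 0.463. Of the neighbours in the order of means, anti-TNF and isotype differed by -0.00 ± 0.204, the combination and isotype by -0.17 ± 0.204, and the combination and anti-IL-6 by 0.32 ± 0.204. The first 2 were smaller than their SE, and the 95% interval of the third, -0.09 to 0.73, included 0. Anti-IL-6 set against isotype gave -0.48 ± 0.204 (95% interval -0.89 to -0.07, unadjusted p 0.0215, limma adjusted p 0.281). Within the runs of index numbers in the library titles, used here as the only trace of library handling, that difference was -0.19 in run 2 (4 anti-IL-6 and 1 isotype mice), -0.85 in run 4 (8 and 1) and 0.70 in run 5 (1 and 5), so it did not keep its sign. All 4 mice without CIA were in run 1, with isotype replicates 4 and 7 and no other mice, and there Pck1 was 1.14 lower on the log2 scale in those 2 mice. With run as a covariate the anti-IL-6 difference from no CIA was -1.43 ± 0.504 (limma unadjusted p 0.00651, adjusted p 0.0527). Without run the limma unadjusted p was 0.000239. The fit with run called 10.9% of all features in that comparison, against 0.558% without it, so the 2 adjusted p are not alike in background. With run, the anti-IL-6 difference from isotype was -0.29 ± 0.253 (limma unadjusted p 0.258). No run held both mice without CIA and mice given anti-TNF, anti-IL-6 or the combination, so a comparison of those groups with no CIA is linked across runs only by the isotype mice, of which 2 were in run 1.

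As a share of the adiponectin level, Pck1 varied less within groups than its own level did. The height of this share depends on the transcript lengths used, which are not given. Pck1 was 26.7 ± 7.06% of the Adipoq FPKM without CIA (SD, n = 4, range 20.2 to 36.7%). It was 18.4 ± 5.28% with isotype, 18.5 ± 6.00% with anti-TNF, 16.4 ± 5.93% with anti-IL-6 and 17.5 ± 4.43% with the combination (n = 13 each). All groups overlapped in this ratio, since isotype reached 29.1% and anti-TNF 29.3%. The lowest ratios, 7.89 and 8.13%, came from anti-IL-6 replicate 1 and anti-TNF replicate 1, which were among the richest in Adipoq at 33.6 and 40.2 FPKM. Anti-TNF replicate 3, with 38.2 FPKM of Adipoq, had 8.48 FPKM of Pck1.

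**Figure D3:**
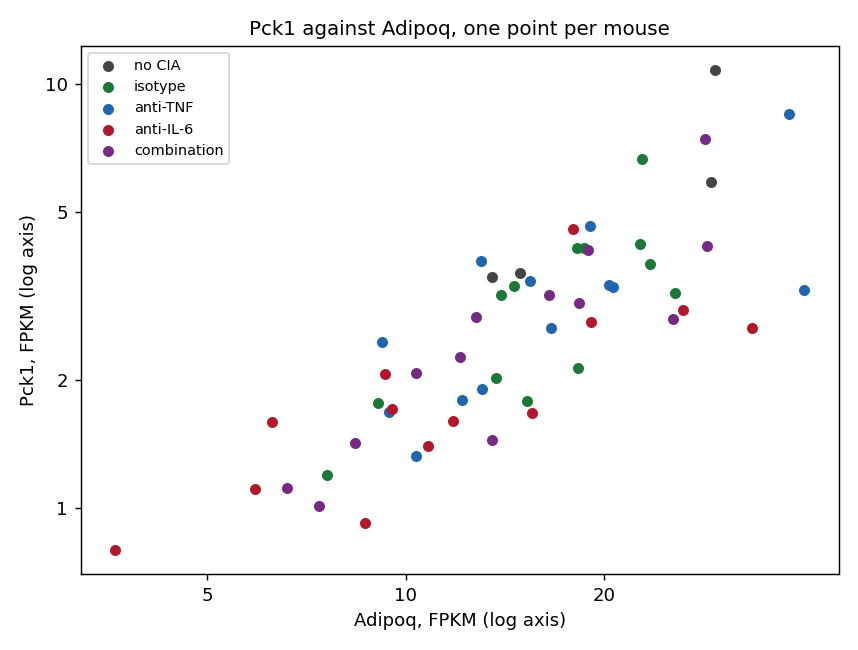
Pck1 FPKM against Adipoq FPKM on log axes, each point a mouse, coloured by group. Mice rich in Adipoq tend to be rich in Pck1, and the 4 mice without CIA lie between 20.2 and 36.7% of the Adipoq level. Immunised mice reach 29.3%, and of the mice without CIA only replicate 2 lies above that.

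The remaining genes of fat metabolism were put in lists by role, drawn up with earlier results of these data known. In the 10 comparisons limma called between 0 and 0.952% of all features, and 1 gene of these lists. This was Trarg1, a fat cell protein of glucose transporter traffic from the list of other white fat markers. It was at 3.15 ± 0.915 FPKM in the mice without CIA and lower with anti-IL-6, at 1.80 ± 0.551 FPKM (log2 difference -0.56 ± 0.137, limma adjusted p 0.0389). That call was lost in 7 of 17 fits that left out 1 library, among them no CIA replicates 2, 3 and 4 (0.273, 0.174 and 0.129) and anti-IL-6 replicates 3, 4, 12 and 13 (0.0528 to 0.0616). Of the 9 tested genes of that list, Slc7a10 passed the filter only through the mice without CIA. The other 8 had negative differences in each of the 4 immunised groups, with medians of -0.37 for isotype, -0.37 for anti-TNF, -0.50 for anti-IL-6 and -0.42 for the combination. The share of negative differences among all features was 44.2, 43.2, 38.0 and 45.9% in those comparisons, and the share with an unadjusted p under 0.05, against which the counts of this kind below are to be read, was 16.7, 19.1, 28.1 and 10.5%. Limma called 0.156, 0.551, 0.558 and 0.156% of all features there. The calls in these lists are to be read against that share, and the call of Trarg1 is not read as a result about its list. Fatty acid and triglyceride synthesis had 0 of 16 calls in each group by limma, and 15, 16, 15 and 15 of 16 negative differences, with medians of -0.27, -0.39, -0.44 and -0.33 and unadjusted p under 0.05 for 3, 1, 5 and 3 genes. In it, the desaturase gene Scd1 was at 378 ± 75.1 FPKM without CIA and 288 ± 121 with anti-IL-6, and Dgat2, which completes triglyceride, at 65.7 ± 7.78 and 57.1 ± 17.4 FPKM. Markers of the sebaceous gland of skin had a mean log2(FPKM + 1) of 5.23 without CIA and 5.02, 4.81, 4.84 and 4.73 in the 4 groups. Their part in the differences of the synthesis list was not tested. Thermogenic fat genes gave 0 of 7 calls and 6 of 7 negative differences in every group, with 1, 2, 5 and 2 genes at an unadjusted p under 0.05. They include Cox8b and Cox7a1, mitochondrial subunits that muscle also makes, and Cox8b was at 297 ± 129 without CIA and 153 ± 114 FPKM with anti-IL-6.

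None of the other lists had a called gene, and their counts of negative differences varied from list to list. Lipolysis had 6, 7, 7 and 6 of 8 negative differences for isotype, anti-TNF, anti-IL-6 and the combination and 0 calls by limma (1, 1, 1 and 2 genes at an unadjusted p under 0.05). The first lipase of the pathway, Pnpla2, was at 75.96 ± 20.0 FPKM without CIA and 45.7 ± 14.5 with anti-IL-6 (log2 difference -0.75, limma adjusted p 0.110), and the last, Mgll, at 167 ± 43.0 and 125 ± 51.6 FPKM. The droplet coat list had 6, 7, 6 and 7 of 8 negative differences and 0 calls (0, 1, 3 and 1 genes at an unadjusted p under 0.05). Its most abundant member Plin2, which many cell types make, was at 69.8 ± 15.2 and 74.4 ± 17.7 FPKM, in the same order. The adipogenic transcription factors had 4, 5, 4 and 5 of 9 negative differences and 0 calls (1, 2, 5 and 1 at the unadjusted level), with Cebpa at 72.3 ± 9.95 and 65.7 ± 16.7 FPKM and Cebpb at 39.1 ± 3.96 and 49.2 ± 7.88 FPKM. Gluconeogenesis and glyceroneogenesis without Pck1 had 4, 3, 3 and 4 of 8 negative differences and 0 calls (0, 2, 2 and 1 at the unadjusted level). There, Gpd1, which makes glycerol phosphate from glucose and is also abundant in muscle, was at 40.1 ± 17.0 and 24.3 ± 17.8 FPKM. Fat progenitor genes had 6 of 7 positive differences in all 4 groups, medians 0.24 to 0.36, and 0 calls (5, 4, 5 and 2 at the unadjusted level), and their most abundant member Ly6a was at 264 ± 30.1 and 357 ± 49.2 FPKM. Pdgfra of that list is also in the list of fibroblast markers used here. The mean log2(FPKM + 1) of the fibroblast markers was 5.90 without CIA and 6.83, 7.00, 6.91 and 6.76 in the 4 groups. The part of fibroblasts in the progenitor differences was not tested. Among other secreted factors, 0 of 10 were called, with 5, 5, 4 and 4 negative differences and 3, 4, 5 and 2 at the unadjusted level. Lipoprotein and fatty acid uptake without Lpl and Fabp4 had 5 of 8 negative differences in each group and 0 calls (1, 1, 4 and 1 at the unadjusted level). The acyl-CoA synthetase Acsl1 of that list was at 53.9 ± 4.91 FPKM without CIA and 36.4 ± 9.80 with anti-IL-6. The adipokine receptor list had 5 of 6 negative differences in each group and 0 calls (0, 2, 2 and 2 at the unadjusted level), with the adiponectin receptor Adipor1 at 82.9 ± 2.38 and 71.7 ± 6.61 FPKM.

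The 10 genes varied together from mouse to mouse within groups. Pearson's r was taken over the 56 libraries on deviations from group means, and it is given as a description because all points share their libraries and the tissue in them. Adipoq, Plin1, Cidec, Lipe and Retn, grouped after their values were seen, had r between 0.81 and 0.96 in their 10 pairs, with a median of 0.91. Pck1 had r of 0.72 to 0.80 with these 5 genes and Lep 0.63 to 0.77. Fabp4 followed at 0.52 to 0.64, Pparg at 0.41 to 0.57 and Lpl at 0.38 to 0.55. The lowest pair was Fabp4 and Pparg with r of 0.12. Libraries rich in one fat gene were thus rich in most: by the mean of the 10 genes the richest were anti-TNF replicate 3, no CIA replicate 2 and anti-TNF replicate 1, and the poorest anti-IL-6 replicate 3, combination replicate 11 and anti-IL-6 replicate 12.

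**Figure D4:**
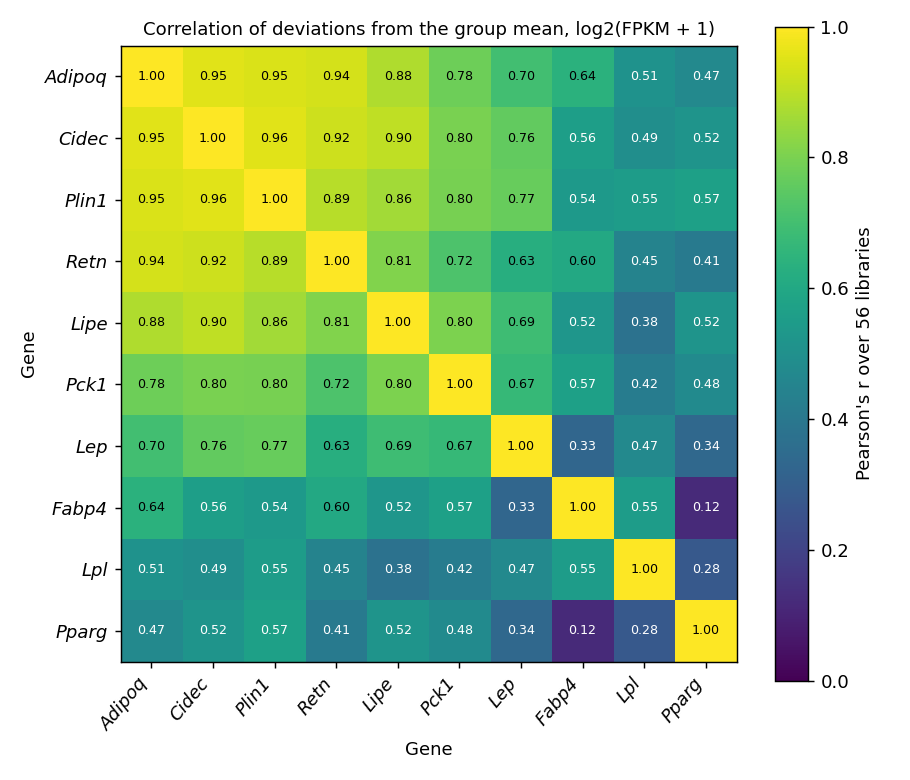
Pearson's r between each pair of the 10 genes over 56 libraries, on deviations from the group mean of log2(FPKM + 1); the colour scale runs from 0 to 1. Adipoq, Cidec, Plin1, Retn and Lipe form a block at 0.81 or more, and the lowest value is 0.12, for Fabp4 and Pparg.

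Among the other tested genes, those whose deviations were most like the mean of the 10 were Cfd (r 0.92), Mrap (0.87), Slc7a10 (0.86), Ces1f (0.84), Cyp2e1 (0.81), Plin4 (0.80), Thrsp (0.78) and Timp4 (0.77), over 56 libraries. Cfd, or adipsin, is a complement protease that mouse fat secretes in quantity, and its mean level was 173 FPKM. For Pck1 alone the 8 most like were Ces1f (r 0.80), Cfd (0.74), Mrap (0.74), Slc7a10 (0.74), Plin4 (0.70), Sult1a1 (0.70), Cyp2e1 (0.70) and Sncg (0.70). Of the 10 genes themselves, Lpl and Pparg ranked 433 and 847 among all tested genes in likeness to the mean that contains them, where the other 8 ranked between 1 and 78. The mean of the 10 other white fat markers was also entered as a covariate, a choice made after seeing the data. The Pck1 difference between anti-IL-6 and no CIA then became -0.46 ± 0.198 (limma unadjusted p 0.0236, adjusted p 1.00). The difference of Adipoq had the opposite sign, 0.24 ± 0.185, and none of the 10 genes was past the threshold. That score includes Mrap and Slc7a10, named above, so it measures largely what the 10 genes measure. Smaller differences follow from such a covariate, and nothing is concluded from this fit.

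The content of other tissues differed between mice and moved with the fat genes. Markers of each tissue were detected in all groups, with every marker of the neutrophil and muscle lists above 0 in at least 1 mouse of each group. The summed level of 10 neutrophil markers was 23.8 to 52.2 FPKM without CIA, 27.2 to 1249 with isotype, 34.3 to 2662 with anti-TNF, 45.6 to 2768 with anti-IL-6 and 41.0 to 1220 with the combination. The summed level of 12 skeletal muscle markers had medians of 25672 FPKM without CIA, 19557 with isotype, 9808 with anti-TNF, 10724 with anti-IL-6 and 19642 with the combination. With the neutrophil score (mean log2(FPKM + 1) of the list) as a covariate the Pck1 difference between anti-IL-6 and no CIA was -0.87 ± 0.304 (limma unadjusted p 0.00608, adjusted p 1.00). With the muscle and epidermis scores it was -0.78 ± 0.263 (limma unadjusted p 0.00451, adjusted p 0.356). The neutrophil score itself had a mean of 1.46 without CIA and 3.49 with anti-IL-6, so that fit cannot fully separate it from the group.

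Relations of the 10 genes to 4 tissue scores were tested over the 56 libraries by permutation within groups, 40 relations in all, and 26 passed a Benjamini-Hochberg adjusted p of 0.05 on r. The share of all tested features that would pass the same test was not computed. The 10 genes also varied together, so the counts in this paragraph are not separate observations. They are not read as particular to the fat genes. Lep had the strongest relation to neutrophils, r = -0.645 and rho = -0.614, each with a permutation p of 1e-05 (adjusted p 0.000133), a value that 100000 resamples cannot go below because it is their smallest. It was -0.616 without the 2 farthest libraries and between -0.469 and -0.842 within the 5 index runs. Cidec (r = -0.471, rho = -0.479, permutation adjusted p 0.00172 and 0.0016) and Pck1 (r = -0.338, rho = -0.333, permutation adjusted p 0.0214 and 0.0252) were also negatively related to it. Without the 2 farthest libraries, anti-IL-6 replicates 12 and 13, Cidec was at -0.409, and Pck1 at -0.293 was no longer past the threshold (permutation adjusted p 0.0688). Pck1 was at 0.163 in run 2 against negative values in the other runs. Of the 10 relations to neutrophils 7 passed the threshold, and 4 without those 2 libraries. The relation of Fabp4 to neutrophils missed the threshold (r = 0.14, rho = 0.165, permutation adjusted p 0.346 and 0.259). To monocytes and macrophages, 7 of the 10 relations passed on r, all negative, and 4 did so without the 2 farthest libraries. The strongest of them was that of Lep (r = -0.466, rho = -0.504, permutation adjusted p 0.00194 and 0.000436), and Pck1 missed the threshold on r (r = -0.277, rho = -0.308, permutation adjusted p 0.0557 and 0.0348). To skeletal muscle, 9 of the 10 genes had a positive relation past the threshold. Lpl had r = 0.605 and rho = 0.636 (permutation adjusted p 0.000133 for both, 0.462 to 0.929 within runs, 0.601 without the 2 farthest libraries), and Pck1 r = 0.526 and rho = 0.566 (permutation adjusted p 0.0004 and 0.000229, 0.393 to 0.739 within runs). Pparg was the exception, with r = 0.0186 and rho = 0.0494 (permutation adjusted p 0.895 and 0.724).

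Fabp4 and Pparg were related to skin with opposite sign. Fabp4 was negatively related to the epidermis score, r = -0.480 and rho = -0.529 (permutation adjusted p 0.00132 and 0.000356, -0.329 to -0.679 within runs), and Pparg positively, r = 0.395 and rho = 0.382 (permutation adjusted p 0.00986 and 0.0106). Without the 2 farthest libraries the relation of Fabp4 was -0.500 and that of Pparg 0.312, which was no longer past the threshold. Lpl was also negatively related to the epidermis score on r, with r = -0.290 and rho = -0.261 (permutation adjusted p 0.0332 and 0.0766). Its r was -0.417 without the 2 farthest libraries and between -0.680 and 0.0854 within runs. Another 20 relations, to endothelium and sebaceous gland, were added after seeing the data. Pparg, which sebocytes also express, had r = 0.743 and rho = 0.731 with the sebaceous gland score (permutation adjusted p 0.0002 for both, 0.697 to 0.835 within runs, 0.704 without the 2 farthest libraries). Fabp4 was positively related to the endothelium score, r = 0.336 and rho = 0.359 (permutation adjusted p 0.033 and 0.023), and Cidec negatively, r = -0.500 and rho = -0.508 (permutation adjusted p 0.0019 and 0.0022). Within runs the Fabp4 relation was between 0.142 and 0.708, and that of Cidec between -0.758 and 0.0193. Lep (r = -0.502, rho = -0.493, permutation adjusted p 0.0020 and 0.0026) and Pck1 (r = -0.304, rho = -0.320, permutation adjusted p 0.0466 and 0.0393) were among the other genes negatively related to endothelium. The Pck1 relation was -0.255 without the 2 farthest libraries and between -0.569 and 0.356 within runs. The part of tissue composition in the group differences was not tested beyond the covariate fits.

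**Figure D5:**
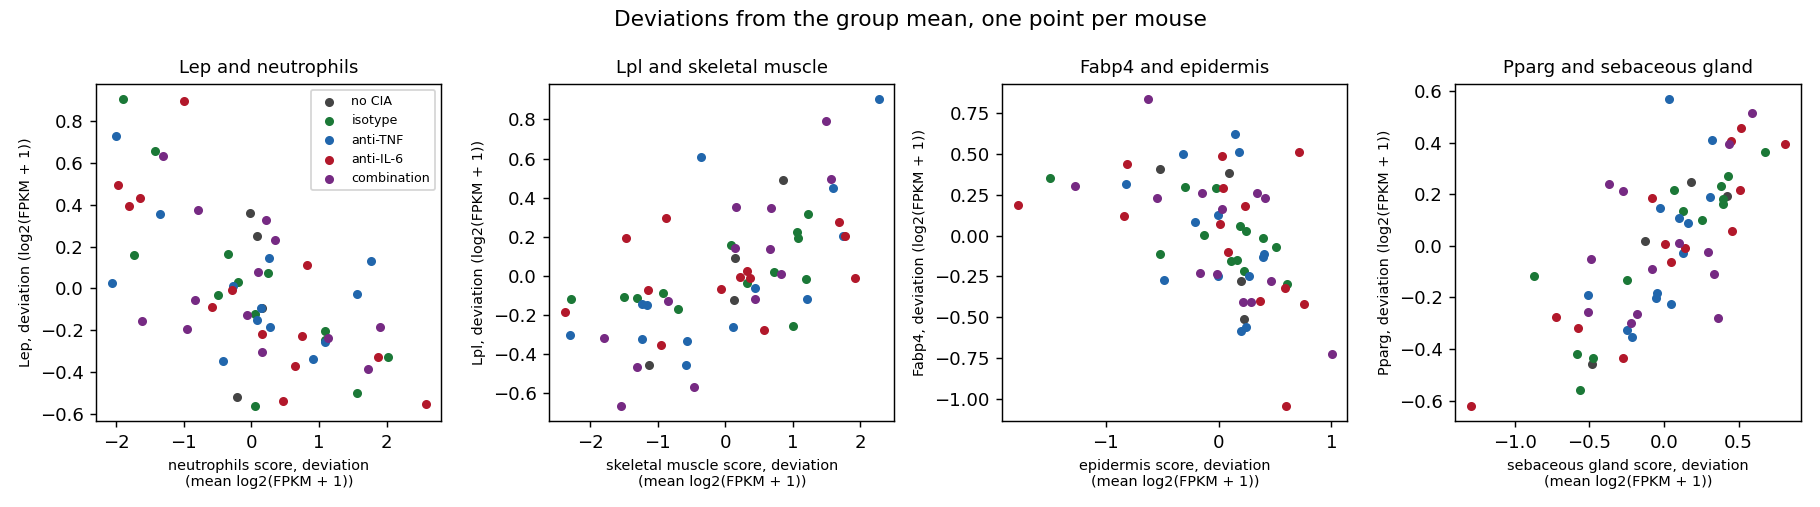
Deviations from the group mean of Lep against the neutrophil score, Lpl against skeletal muscle, Fabp4 against epidermis and Pparg against sebaceous gland, all on the log2(FPKM + 1) scale, each point a mouse coloured by group. Lep declines with neutrophils (r = -0.645) and Pparg climbs with the sebaceous gland score (r = 0.743).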

How the data were processed

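Whole front paws of 56 male DBA/1 mice were sequenced (Qiagen RNeasy, Illumina TruSeq Stranded mRNA, paired-end NovaSeq), per the labels' protocols. The authors deposited a table of FPKM per Ensembl gene; the unit was read from the values. DESeq2 is named in the submitters' processing notes; for aligner, genome build and annotation: not given in the sources used here. Gene symbols came from GENCODE M21 (GRCm38), whose versioned identifiers matched all 10 genes. Groups came from the treatment labels. No 2 libraries were identical (highest correlation 0.994). Nothing in the labels says how paws of a mouse were pooled.

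Tests used limma 3.58.1 in R 4.3.3 (trended, robust prior, two-sided) on log2(FPKM + 1), features whose mean reached 1 FPKM in 1 or more groups, 1 fit of 56 libraries with 51 residual degrees of freedom, and Benjamini-Hochberg adjustment over 14700 features. A fold on this scale understates the change of low genes. The fit was run on simulated data in which genes varied independently. Genes here varied together, so that run cannot show how calls behave in these data. Depth was estimated from FPKM steps, where 76.9 to 82.4% of low values of single-exon genes came out whole within 0.05, too few to recover counts. Tissue scores were the mean log2(FPKM + 1) of marker lists, and their relations were tested by permutation (scipy 1.17.1, numpy 2.4.6). Promoter sequences are from RefSeq, GRCm38.p6. The genes and lists were chosen with earlier results of these data known. From each pathway list the text names the genes past the threshold. Where none passed, it names at most a few abundant genes, which were not always the most abundant and do not stand for the list. The 8 genes most like a pattern were named by Pearson's r, leaving out the 10 genes and unnamed gene models. Alternatives were other pseudocounts, no filter, the compared groups alone, median-of-ratios scaling, covariates and leaving out each library.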

Additional observations from a re-analysis of the deposited data

How the results depend on the processing

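In the comparison of anti-IL-6 with no CIA, the number of the 10 genes called was 1, and it was 0 with a pseudocount of 10, without the filter, with the compared groups alone, and with index run, muscle and epidermis scores, neutrophil score or the other white fat marker score (added after seeing the data) as covariates. The limma adjusted p of Pck1 there was 0.0712, 0.0783, 0.0848, 0.0527, 0.356, 1.00 and 1.00, and the cause was not tested. It was 0.0399 with a pseudocount of 0.1 and 0.0308 with median-of-ratios scaling, which kept the call. Leaving out 1 library gave 0 to 1 genes called there. The white fat marker score measures largely what the 10 genes measure, so the call lost with it is not read. Trarg1 lost its call in that comparison without the filter (0.0597), with the groups alone (0.154), and with run (0.204), muscle and epidermis (0.112) or neutrophils (0.143) as covariates. With index run as a covariate, 1 gene was called in isotype against no CIA (Lep, while 18.7% of all features were called) and 2 in anti-TNF against no CIA (Lep, and Lipe at -0.63, limma adjusted p 0.0328, while 22.2% of all features were called), where 0 were called without it. Lep was tested there only because of its level without CIA, so its calls are not read. That contrast then rests on the 4 mice without CIA and 2 isotype mice of run 1. All other alternatives left the number of the 10 genes called as it was; Lep was not tested where the compared groups were fitted alone without the mice without CIA. Over all features, calls in anti-IL-6 against no CIA were 82, and 146 and 29 with pseudocounts of 0.1 and 10, 37 with the groups alone, 130 with median-of-ratios scaling, 1608 with run, 38 with muscle and epidermis, 12 with neutrophils, 15 with the white fat markers, and 17 to 149 leaving out a library. In isotype against no CIA they were 23, and 66, 5, 35, 68, 2744, 86, 3 and 10 with those settings in that order, 35 without the filter, and 0 to 59. Of 3134 alternative fits of single genes, 18 lost a call, 3 gained one, and 179 changed sign where neither fit made a call. Of the 40 tissue relations, 26 passed the threshold; the number was 26 with either other pseudocount, 25 with values not centred on groups and 19 without the 2 farthest libraries. No paired analysis was possible because the labels carry no replicate numbers that are shared between groups. Only 4 mice lacked CIA, which limits every comparison with them, and Lep was near the lower end of what the depth resolves.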
